A study of Mus musculus with 6 samples.

Results

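Chaperones are proteins that help other proteins fold, keep them soluble or hand them on for breakdown. The set described here holds 39 genes of the cytosolic and mitochondrial chaperone systems among 55416 genes in the count files. They were chosen by name, as members of known families. They fall into Hsp90 with its co-chaperones (5 genes), Hsp70 with its co-chaperones (12), Hsp40 (7), small heat shock proteins (3), the mitochondrial pair Hsp60 and Hsp10 (2), the cytosolic chaperonin CCT (8) and heat shock transcription factors (2).

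RNA came from cells labelled as oligodendrocyte precursors, the dividing progenitors of myelin-forming cells. They were taken from the cortex of mice aged 11 postnatal days. In the 3 Ift88 cKO samples the genotype was Pdgfra-Cre:Ift88 fl/fl; RosaEYFP, so Cre recombinase under the Pdgfra promoter acted on 2 floxed copies of Ift88, a gene needed to build the primary cilium. In the 3 Ift88 control samples it was Pdgfra-Cre:Ift88 fl/wt; RosaEYFP, with 1 floxed and 1 wild-type copy, so Cre, a floxed copy and the EYFP reporter were present in both groups. Each sample pooled cells from 4 to 6 mice, and p-values measure the spread between such pools. Samples are called cKO 1 to 3 and control 1 to 3.

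Hsp70 binds unfolded stretches of client proteins in a cycle driven by ATP, which Hsp40 (J-domain) proteins start and nucleotide exchange factors end. Hsp90 takes over a narrower set of clients such as kinases and receptors, and CCT, a closed chamber built from different but related subunits, folds actin and tubulin. Small heat shock proteins hold unfolded proteins without ATP. When unfolded proteins build up, the transcription factor Hsf1 binds heat shock elements, repeats of the letters GAA in alternating orientation, and switches on many of these genes.

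The heat shock element is shown first because it is the sequence through which Hsf1 acts. The motif GAANNTTCNNGAA, with its reverse complement TTCNNGAANNTTC (both strands, overlaps allowed), was searched in windows from 250 bases before to 50 bases after each RefSeq gene start (GRCm38.p6). Of the 39 genes, 31 had a window, and 4 of these held the motif: Hspd1, Hspe1, Dnajb6 and Hsph1. Over all 32851 windows in the table, 0.603% held it. The stretches before the starts of Hspe1 (chr1:55087998-55088147, plus strand) and Dnajb6 (chr5:29735818-29735897, plus strand) follow, with bases covered by the motif in capitals. The Hspe1 stretch also lies before a start of Hspd1, which runs in the opposite direction.
Hspe1: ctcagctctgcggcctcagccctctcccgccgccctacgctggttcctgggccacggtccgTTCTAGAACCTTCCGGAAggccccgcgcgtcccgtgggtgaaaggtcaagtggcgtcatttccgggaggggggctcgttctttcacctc
Dnajb6: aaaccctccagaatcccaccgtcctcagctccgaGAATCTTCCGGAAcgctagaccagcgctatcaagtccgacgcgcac
A match describes these letters only, and a window without one says nothing about Hsf1.

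Hspa1a and Hspa1b encode the stress-inducible Hsp70 and are neighbouring copies on chromosome 17. Their promoters are printed because their counts differed far more than their sequence. Over the 250 bases before each start (Hspa1b chr17:34959239-34959488 and Hspa1a chr17:34972157-34972406, minus strand, GRCm38.p6) they were 98.8% identical, with 3 differing bases, shown in capitals.
Hspa1b: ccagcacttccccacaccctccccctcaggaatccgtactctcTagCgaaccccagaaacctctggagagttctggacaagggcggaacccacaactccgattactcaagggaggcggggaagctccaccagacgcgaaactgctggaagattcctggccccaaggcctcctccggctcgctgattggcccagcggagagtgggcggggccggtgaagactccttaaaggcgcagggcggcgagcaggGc
Hspa1a: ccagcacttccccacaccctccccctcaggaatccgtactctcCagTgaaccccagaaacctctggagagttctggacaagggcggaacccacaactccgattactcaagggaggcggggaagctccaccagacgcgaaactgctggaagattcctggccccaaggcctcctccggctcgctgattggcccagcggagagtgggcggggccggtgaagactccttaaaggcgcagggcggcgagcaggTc

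Depth was similar in 5 libraries and low in cKO 2. Total counts lay between 11773548 and 13909236 in the 5 deeper libraries and at 568509 in cKO 2, in which 3651 genes had a count against 14047 to 16252 elsewhere. A count of 0 allows up to 5.28 CPM (counts per 1000000 counts of the library) in cKO 2 and up to 0.255 CPM elsewhere, covering counting error only. The targeted gene Ift88 had 1, 0 and 305 counts in the cKO libraries and 143, 32 and 167 in the controls; the floxed exons are not given in the labels, so its 3' tag does not check the genotype. Of 12 precursor markers, 4 had no count in any deeper library, Sox10 among them. Olig1 and Olig2 had 32 and 67 counts in cKO 3 and 0 in all other libraries. Pdgfra had 155, 0 and 121 counts in cKO 1 to 3 and 0, 59 and 56 in control 1 to 3. The precursor markers summed to 225, 7.04 and 222 CPM in cKO 1 to 3 and to 340, 480 and 232 CPM in control 1 to 3. Of these sums, C1ql1 alone held 20.3, 1.76 and 29.1 CPM in the cKO libraries and 92.0, 297 and 135 CPM in the controls. Ptprz1 held 143, 1.76 and 116 CPM in the cKO libraries and 215, 160 and 53.9 CPM in the controls. Among 6 precursor markers tested without cKO 2, 4 had a log2 fold change above 0 and 2 below (median 0.97). The 9 neuron markers summed to 6805, 2165 and 6818 CPM in the cKO libraries and 6032, 4945 and 1719 CPM in the controls. Among 8 neuron markers tested without cKO 2, 7 had a log2 fold change above 0 and 1 below (median 0.55). The 8 choroid plexus markers summed to 590, 48057 and 862 CPM against 359, 153 and 125 CPM. Ttr made up most of the sum in cKO 2. It stood at 376, 45945 and 574 CPM in cKO 1 to 3 and 25.1, 7.37 and 0.147 CPM in control 1 to 3. Only Ttr, Enpp2 and Otx2 had at least 20 counts in cKO 2, and the other choroid plexus markers had none. The 8 astrocyte markers summed to 784, 682 and 649 CPM in cKO 1 to 3 and 866, 1112 and 676 CPM in control 1 to 3. Without cKO 2, 6 of 8 had a log2 fold change below 0 (median -1.82). Aldh1l1, Aqp4 and Mlc1 were at 0 in all 3 cKO libraries, and Gfap stood at 44.5, 0 and 19.5 CPM in the cKO libraries and 134, 281 and 243 CPM in the controls. The 2 astrocyte markers above 0 were Slc1a3 (log2 fold change 1.06) and Slc1a2 (0.43). Slc1a3 stood at 454, 682 and 294 CPM in the cKO libraries and 248, 224 and 66.3 CPM in the controls. The part of these cells in the results below was not tested. In such pools, fewer cells of a type and less RNA per cell cannot be told apart.

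Most of the set was well detected, and none of it passed the test between cKO and control samples. In the 5 deeper libraries 32 of 39 genes had at least 20 counts in every library. The set summed to 7404, 7275 and 8793 CPM in cKO 1 to 3 and to 8918, 8090 and 9136 CPM in control 1 to 3, so the total ranges overlapped between groups. Of 37 genes that passed the filter on low counts, 0 were higher and 0 lower in cKO samples at an adjusted p under 0.05 (edgeR's quasi-likelihood test, Benjamini-Hochberg over 12833 genes), where the background was 0.00779% higher and 0.00779% lower. Hspa1a and Hspb6 were not tested. At an unadjusted p under 0.05, 1 member was higher (Ahsa1) and 1 lower (Hspb8), against 1.3% of all genes higher and 1.53% lower; DESeq2 and limma-voom also called 0 members, with 2 higher and 1 lower by DESeq2 at an unadjusted p under 0.05 (background 3.98% higher and 2.33% lower) and 1 higher and 2 lower by limma-voom (background 2.14% higher and 4.27% lower).

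Leaving out the shallow library changed individual values, but not the count of members that passed. Without cKO 2, 0 of 37 tested members passed in either direction, beside a background of 0% higher and 0.00687% lower among 14562 genes. At an unadjusted p under 0.05 there were 0 higher and 2 lower (Hspb8 and Hspe1), where the background was 3.06% higher and 3.03% lower. The median log2 fold change, cKO over control, was -0.15 over the 37 members and -0.06 over all genes tested. With all 6 libraries it was -0.59 over the members and -0.44 over all genes, so the single values of that fit sit on a common downward shift. Fold changes below are therefore from the 5 deeper libraries unless named otherwise.

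**Figure D1:**
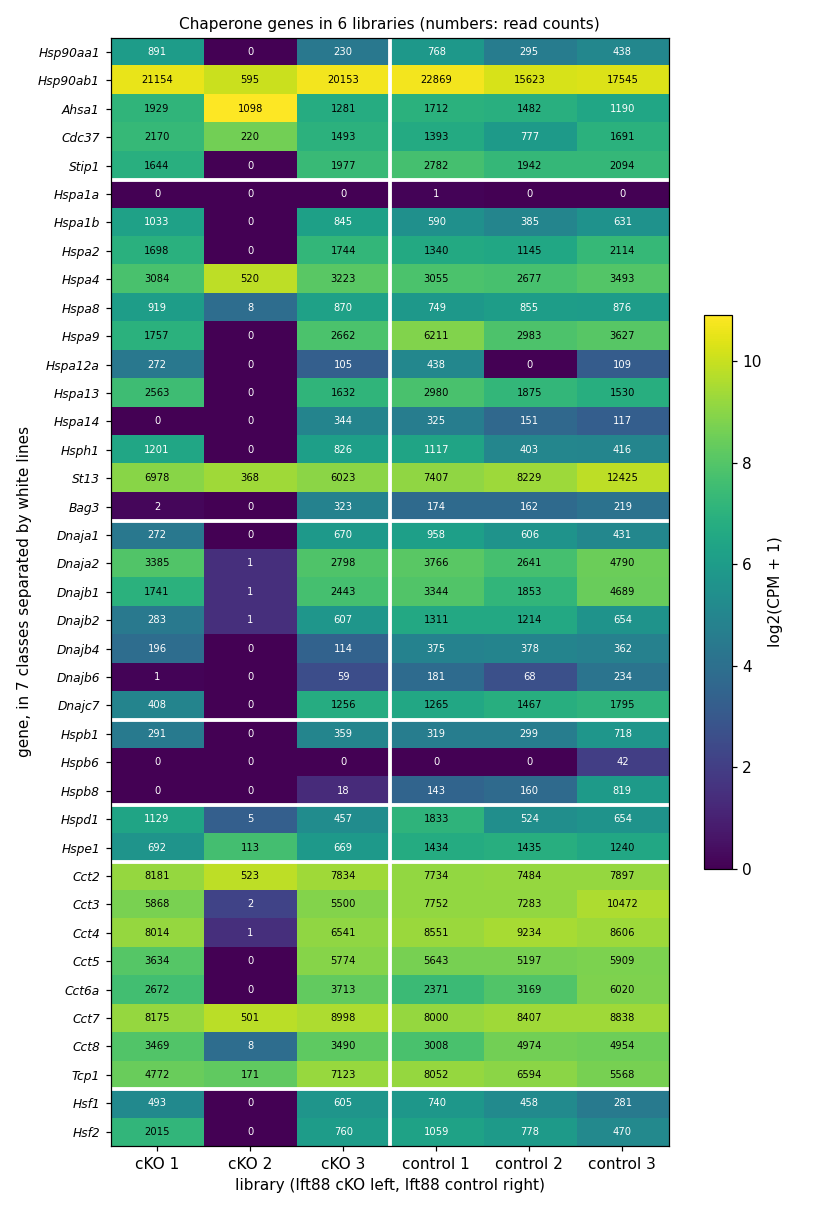
Read counts of the 39 chaperone genes (rows, 7 classes) in each library (columns), coloured by log2(CPM + 1). The cKO 2 column holds 9 genes with at least 20 counts, while Hsp90ab1 is bright in all 6 columns and Hspa1a dark in all 6.

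**Figure D2:**
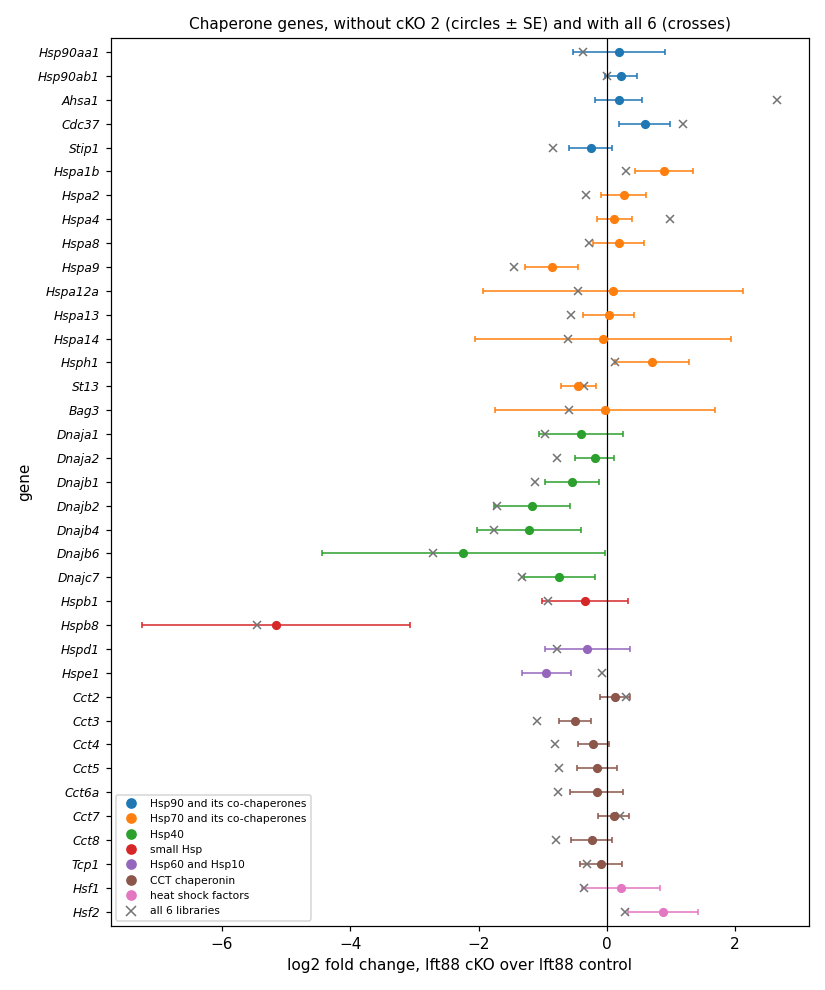
Log2 fold change of cKO over control for the 37 tested genes (horizontal axis), with circles and SE bars for the fit without cKO 2 and crosses for all 6 libraries. The 7 Hsp40 genes lie left of 0 in both fits, Hsp90ab1 lies near 0, and none of the 37 passed the test in either fit.

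Groups separated without overlap for a minority of genes. Without cKO 2, 8 of 37 members (21.6%) had a lower CPM in both cKO libraries than in all 3 controls, where 12.6% of all tested genes did so. They were Hspa9, St13, Dnajb4, Dnajb6, Hspb8, Hspe1, Cct3 and Cct4. In the other direction, Cdc37, Hspa1b and Cct2 had a higher CPM in both cKO libraries than in all 3 controls, or 8.11% of the members beside 13% of all tested genes. With all 6 libraries, 6 members were lower without overlap (16.2%, background 11.1%) and 2 were higher (5.41%, background 1.33%). In cKO 2 only 21.8% of all genes expected to reach 20 counts did so, which limits its low values here and below.

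Among the Hsp90 genes, the constitutive cytosolic isoform Hsp90ab1 was the most abundant gene of the set in the 5 deeper libraries. It had 21154, 595 and 20153 counts in cKO 1 to 3 and 22869, 15623 and 17545 in control 1 to 3, or 1426 ± 342 CPM in cKO samples and 1398 ± 243 CPM in controls (SD, n = 3 each). Without cKO 2 the cKO mean of Hsp90ab1 was 1616 CPM and its log2 fold change 0.22 (SE 0.25, edgeR adjusted p = 0.9999). The groups overlapped with and without cKO 2. Hsp90aa1, the stress-inducible isoform, had 891, 0 and 230 counts in the cKO libraries and 768, 295 and 438 in the controls. Counts of Hsp90ab1 were 23.7 and 87.6 times those of Hsp90aa1 in cKO 1 and 3, and 29.8, 53.0 and 40.1 times in control 1 to 3. Each transcript is read at its 3' end, so these ratios of counts carry no scaling by length.

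Values of 2 Hsp90 co-chaperones were raised in cKO 2. Ahsa1, which activates the ATPase of Hsp90, had 1929, 1098 and 1281 counts in cKO 1 to 3 and 1712, 1482 and 1190 in control 1 to 3. In CPM that is 139, 1931 and 109 against 125, 116 and 87.7, so only cKO 2 stood apart. The log2 fold change of Ahsa1 was 2.65 (SE 1.06) with all 6 libraries and 0.18 (SE 0.36; edgeR adjusted p = 0.9999 in both) without cKO 2. Cdc37, which brings kinases to Hsp90, had 2170, 220 and 1493 counts in the cKO libraries and 1393, 777 and 1691 in the controls; its CPM was 156, 387 and 127 in the cKO libraries, above the 102, 60.9 and 125 of the controls. The difference did not pass the test (log2 fold change 0.59, SE 0.39; edgeR adjusted p = 0.906). Stip1, the adaptor that joins Hsp70 to Hsp90, had 1644, 0 and 1977 counts against 2782, 1942 and 2094, and its groups overlapped.

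The Hsp70 class was led by St13, a cofactor that stabilises the ADP-bound form of Hsp70. St13 had 6978, 368 and 6023 counts in cKO 1 to 3 and 7407, 8229 and 12425 in control 1 to 3, which is 502, 647 and 512 CPM in the cKO libraries and 543, 645 and 916 CPM in the controls. Its log2 fold change was -0.44 (SE 0.28; edgeR adjusted p = 0.873). Hspa4, a nucleotide exchange factor of the Hsp110 family, stayed within a narrow band in the deeper libraries, at 222 and 274 CPM in cKO 1 and 3 and 224, 210 and 257 CPM in the controls. In cKO 2 it stood at 915 CPM from 520 counts. Hsph1, another exchange factor of that family, had 1201, 0 and 826 counts in the cKO libraries and 1117, 403 and 416 in the controls.

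Hspa8, the constitutive Hsp70 of the cytosol, had 919, 8 and 870 counts in the cKO libraries and 749, 855 and 876 in the controls, the groups overlapping. Of the 50-base words in the last 500 bases of its transcript, 90.2% also occur in annotated transcripts of 13 other genes (GENCODE M21). The counting command does not ask for reads with several alignments, so reads from such words may be missing from the count; this was not tested. Words were also shared for Dnaja1 (100%), Hspe1 (53.2%), Tcp1 (47.9%), Ahsa1 (39.5%), Cct8 (31.7%), Hspb1 (15.96%) and Hsp90ab1 (7.76%). They were taken from the longest protein-coding transcript of each gene and sought on both strands. For Dnaja1, Tcp1 and Cct8 the main partners were Smu1, Acat3 and Usp16. These lie on the opposite strand at the same place, so such shared words need not mean several alignments. No word was shared for the other 30 of 38 members with a transcript in that annotation.

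The inducible copies Hspa1a and Hspa1b differed widely in their counts. Hspa1a had 0 counts in 5 libraries and 1 in control 1, too few to test. Hspa1b had 1033, 0 and 845 counts in cKO 1 to 3 and 590, 385 and 631 in control 1 to 3. In CPM, both deeper cKO libraries (74.3 and 71.8) were above all controls (43.2, 30.2 and 46.5), while cKO 2 held none. The log2 fold change of 0.89 (SE 0.45) did not pass (adjusted p = 0.767, edgeR), and with all 6 libraries it was 0.30 (SE 1.72). None of the words in the last 500 bases of either transcript was shared with another gene, so their 3' ends can be told apart. Reads over their similar coding parts could align to both copies and, as for Hspa8, may be missing from the counts. This leaves both counts uncertain, and how such reads were assigned was not tested.

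Mitochondrial and specialised Hsp70 proteins varied by library. Hspa9, the Hsp70 of the mitochondrial matrix, had 1757, 0 and 2662 counts in the cKO libraries and 6211, 2983 and 3627 in the controls. Both deeper cKO libraries were below all controls in CPM (126 and 226 against 455, 234 and 267). The log2 fold change of Hspa9 was -0.86 (SE 0.42, edgeR adjusted p = 0.767). In cKO 2 it had 0 counts where 100 were expected from cKO 1 and 3. A processed copy, Hspa9-ps1, took 24.8% and 12.3% of the joint counts in cKO 1 and 3 and 9.25% to 20.6% in the controls. Hspa2, best known from the testis, had 1698, 0 and 1744 counts against 1340, 1145 and 2114, and Hspa13, a microsomal member, 2563, 0 and 1632 against 2980, 1875 and 1530. Low members appeared in some libraries and not in others of the same group: Hspa12a had 272, 0 and 105 counts against 438, 0 and 109, Hspa14 had 0, 0 and 344 against 325, 151 and 117, and Bag3, which links Hsp70 to small heat shock proteins, had 2, 0 and 323 against 174, 162 and 219.

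All 7 Hsp40 genes had a log2 fold change below 0, and none passed the test. They summed to 452, 5.28 and 675 CPM in cKO 1 to 3 and to 820, 645 and 955 CPM in control 1 to 3, so cKO 3 lay above control 2. Without cKO 2 their median log2 fold change was -0.74, within a span of -2.24 to -0.19, beside -0.06 over all genes tested. In each of 14 fits, the one on all 6 libraries and those with another scaling, test, filter or choice of libraries, all 7 values stayed below 0 and the class median stayed below that of all genes, by 0.41 to 1.35 on the log2 scale. The astrocyte and immediate early genes given elsewhere also had medians below 0 without cKO 2, at -1.82 and -0.88, and their part in the Hsp40 values was not tested. The 7 genes share the same libraries and are not independent replicates of the comparison. All 14 fits draw on the same 6 libraries, so their shared direction is no further evidence. These 7 genes were also chosen with earlier results of these data known. Among 22 further Hsp40 genes tested without cKO 2, 11 lay above 0 and 11 below (median 0.00).

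Dnaja2, a cytosolic partner of Hspa8, was the most abundant member of the class and had the log2 fold change closest to 0. It had 3385, 1 and 2798 counts in cKO 1 to 3 and 3766, 2641 and 4790 in control 1 to 3 (log2 fold change -0.19, SE 0.30; edgeR adjusted p = 0.9999). The heat-inducible Dnajb1 had 1741, 1 and 2443 counts against 3344, 1853 and 4689, and cKO 3 lay within the control range in CPM. Dnajb2, a neuronal member with ubiquitin-interacting motifs, had 283, 1 and 607 counts in the cKO libraries and 1311, 1214 and 654 in the controls. Its 20.3, 1.76 and 51.6 CPM overlapped the controls at 96.0, 95.2 and 48.2 CPM (log2 fold change -1.17, SE 0.59; edgeR adjusted p = 0.767). Dnajc7, which binds both Hsp70 and Hsp90, had 408, 0 and 1256 counts against 1265, 1467 and 1795.

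Dnajb4 and Dnajb6 were lower in cKO 1 and 3 than in every control, without passing the test. Both were at 0 in cKO 2, where 6.76 and 1.44 counts were expected from cKO 1 and 3. A 0 in that library allows up to 5.28 CPM. Dnajb4 had 196, 0 and 114 counts in cKO 1 to 3 and 375, 378 and 362 in control 1 to 3. It stood at 14.1, 0 and 9.68 CPM in the cKO libraries, against 27.5, 29.6 and 26.7 CPM in the controls (log2 fold change -1.21, SE 0.80; edgeR adjusted p = 0.898). Dnajb6, which suppresses aggregation and carries the heat shock element printed above, had 1, 0 and 59 counts in the cKO libraries and 181, 68 and 234 in the controls, with cKO 3 at 5.01 CPM just below control 2 at 5.33 CPM (log2 fold change -2.24, SE 2.21; edgeR adjusted p = 0.9999). Without cKO 3, which leaves 1 cKO count, the fitted value of Dnajb6 was -7.27. Dnaja1 had 272, 0 and 670 counts against 958, 606 and 431, but 100% of its last 500 exon bases overlap Smu1, which lies on the opposite strand. The counting used no strand, so a read in this overlap fits both genes. Whether such reads were counted for Dnaja1 or left out was not tested.

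Small heat shock proteins had the lowest summed level of the 7 classes in the deeper libraries other than control 3, where the heat shock factors were lower. They summed to 20.9 and 32.0 CPM in cKO 1 and 3 and to 33.8, 36.0 and 116 CPM in control 1 to 3. Hspb8, the partner of Bag3 in selective autophagy (GRCm39 chromosome 5, 116546550 to 116560923, minus strand), had 0, 0 and 18 counts in cKO 1 to 3 and 143, 160 and 819 in control 1 to 3. All 3 cKO values lay below all controls, at 0.510 ± 0.883 CPM against 27.8 ± 28.2 CPM (SD, n = 3 each), but control 3 alone set most of the control mean. Its log2 fold change of -5.16 (SE 2.09) was the most negative among the tested members without cKO 2 and did not pass (edgeR adjusted p = 0.767). With all 6 libraries it was -5.45 (SE 2.33; edgeR adjusted p = 0.9999), and without cKO 3, where both remaining cKO libraries are at 0, it was -11.2, a fitted value that depends on the prior count. Hspb1, the small heat shock protein known as Hsp25 in mouse, had 291, 0 and 359 counts against 319, 299 and 718, with overlapping groups (log2 fold change -0.34, SE 0.68; edgeR adjusted p = 0.9999). Hspb6 had 42 counts in control 3 and 0 elsewhere.

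The mitochondrial chaperonin Hsp60 (Hspd1) and its lid Hsp10 (Hspe1), which share the promoter stretch printed above, had different values, and the difference between them was not tested. In the annotation of the files (GRCm39), Hspd1 spans chromosome 1 from 55116994 to 55127402 on the minus strand and Hspe1 from 55127291 to 55130466 on the plus strand, so they overlap at their 5' ends. Hspe1 had 692, 113 and 669 counts in cKO 1 to 3 and 1434, 1435 and 1240 in control 1 to 3. In the deeper libraries this was 49.8 and 56.8 CPM in the cKO samples, below 105, 112 and 91.4 CPM in the controls, while cKO 2 stood at 199 CPM. The log2 fold change was -0.94 (SE 0.38, adjusted p = 0.767) without cKO 2 and -0.08 (SE 1.68; edgeR adjusted p = 0.9999) with it. Hspd1 had 1129, 5 and 457 counts in the cKO libraries and 1833, 524 and 654 in the controls. Its 81.2 CPM in cKO 1 lay inside the control span of 41.1 to 134 CPM, and cKO 3 at 38.8 CPM just below it (log2 fold change -0.30, SE 0.67; edgeR adjusted p = 0.9999).

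Of the joint counts of that pair and its processed copies, a large part lay on the copies. The files list 15 copies named after 6 members, and 10 of them had at least 20 counts in a deeper library. The 5 copies of Hspd1 held 79.3% and 89.8% of the joint counts of gene and copies in cKO 1 and 3, and 62.7%, 79.2% and 87.4% in control 1 to 3. A single copy, Hspd1-ps3, had 3510, 1 and 2491 counts in cKO 1 to 3 and 1989, 1366 and 3079 in control 1 to 3, more than Hspd1 itself in all 5 deeper libraries. Copies of Hspe1 held 47.6% and 44.4% of joint counts in cKO 1 and 3 and 30.4% to 35.8% in the controls. In the longest protein-coding transcripts of Hspd1, Hspa9 and Cct3, the last 500 bases shared no 50-base word with another annotated gene. Other 3' ends and earlier bases were not compared, so the origin of the reads on their copies was not tested. For Hspe1 53.2% of such words were shared, so the split between Hspe1 and its copies is uncertain. The part of that split in the lower Hspe1 value of the deeper cKO libraries was not tested.

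**Figure D3:**
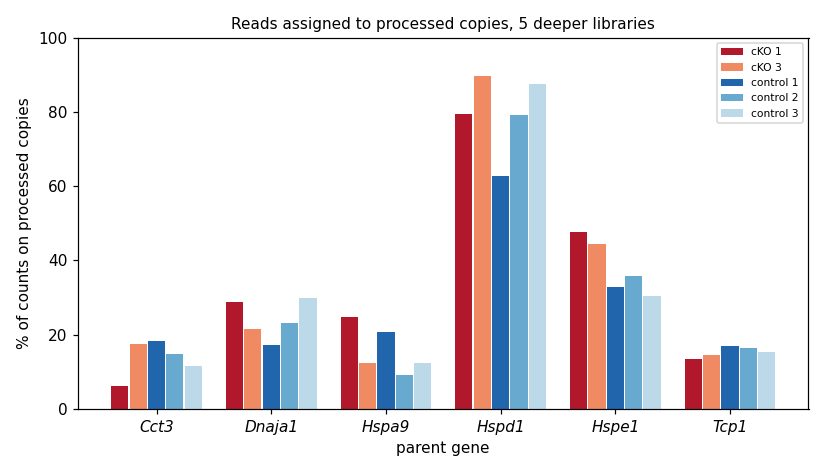
Percentage of the counts of each parent gene and its named processed copies that was assigned to the copies, in the 5 deeper libraries (cKO in reds, control in blues). Hspd1 stands at 62.7% to 89.8% and Hspe1 at 30.4% to 47.6%, whereas Cct3, Dnaja1, Hspa9 and Tcp1 stay at or below 29.9%.

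CCT had the highest summed level of the 7 classes in the 5 deeper libraries. The 8 subunit genes summed to 3220, 2121 and 4160 CPM in cKO 1 to 3 and to 3744, 4103 and 4294 CPM in control 1 to 3. In the deeper libraries all 8 were detected, and the highest subunit was 3.06 and 2.58 times the lowest in cKO 1 and 3 and 3.61, 2.91 and 2.11 times in control 1 to 3. Without cKO 2 the log2 fold changes of the 8 subunits lay between -0.50 and 0.13, with 7 of 8 closer to 0 than 0.5, and none passed.

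Cct2 varied least among the subunits. Cct2 had 8181, 523 and 7834 counts in cKO 1 to 3 and 7734, 7484 and 7897 in control 1 to 3, with controls at 578 ± 10.6 CPM (SD, n = 3) and cKO 1 and 3 at 588 and 665 CPM, just above them (log2 fold change 0.13, SE 0.23; edgeR adjusted p = 0.9999). Its highest value in the deeper libraries was 1.17 times its lowest, where the median over 2081 genes with a mean of at least 100 CPM was 2.07. Cct7 had 8175, 501 and 8998 counts against 8000, 8407 and 8838, and its groups overlapped; its highest value was 1.30 times its lowest in the deeper libraries, as for Cct4.

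Cct3 and Cct4 lay below the controls in cKO 1 and 3 without passing the test. Their 2 and 1 counts in cKO 2 stood where 253 and 322 were expected from cKO 1 and 3. Cct3 had 5868, 2 and 5500 counts in cKO 1 to 3 and 7752, 7283 and 10472 in control 1 to 3, or 422 and 467 CPM in cKO 1 and 3 and 568, 571 and 772 CPM in the controls (log2 fold change -0.50, SE 0.25; edgeR adjusted p = 0.767). Cct4 had 8014, 1 and 6541 counts against 8551, 9234 and 8606 (log2 fold change -0.21, SE 0.24; edgeR adjusted p = 0.9999). The groups of Cct5, Cct6a, Cct8 and Tcp1 overlapped, and their log2 fold changes lay between -0.24 and -0.10. For Cct8 and Tcp1, 38.4% and 52.6% of the last 500 exon bases overlap Usp16 and Acat3, so part of their reads is uncertain.

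**Figure D4:**
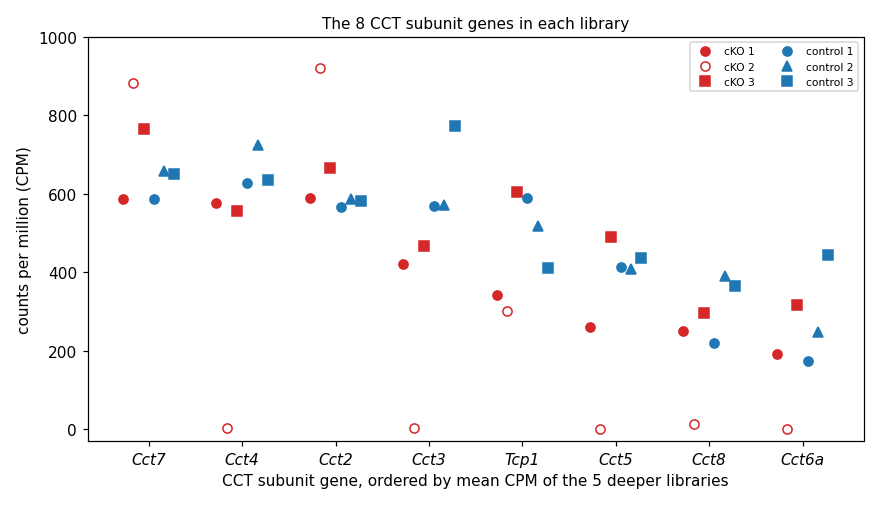
CPM of the 8 CCT subunit genes (horizontal axis) in each library, cKO in red with cKO 2 as open circles, control in blue. The cKO 2 points of Cct2 and Cct7 stand at 920 and 881 CPM, above all others, while those of Cct3, Cct4, Cct5, Cct6a and Cct8 lie at or near 0.

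The heat shock factors were expressed at modest levels. Hsf1, the master regulator of the heat shock response, had 493, 0 and 605 counts in cKO 1 to 3 and 740, 458 and 281 in control 1 to 3, with overlapping groups (log2 fold change 0.22, SE 0.61; edgeR adjusted p = 0.9999). Hsf2, which acts with Hsf1 and in development, had 2015, 0 and 760 counts against 1059, 778 and 470. At 145 and 64.6 CPM in cKO 1 and 3 and 77.6, 61.0 and 34.6 CPM in the controls the groups overlapped (log2 fold change 0.87, SE 0.55; edgeR adjusted p = 0.881).

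The shallow library did not look like a thinned copy of the other cKO libraries for these genes. From the mean CPM of cKO 1 and 3, 30 members were expected to reach 20 counts in cKO 2; 9 did, and 13 of the 30 were at 0. Over all genes, 1125 of 5161 with such an expectation reached 20 counts, so the members (30.0%) and all genes (21.8%) both fell short. The 9 genes were Hsp90ab1, Ahsa1, Cdc37, Hspa4, St13, Hspe1, Cct2, Cct7 and Tcp1. Ahsa1 had 1098 counts where 70.3 were expected, and Cct4 had 1 where 322 were expected. Within CCT, Cct2 and Cct7 made up 84.9% of the class in cKO 2, 36.5% and 34.4% in cKO 1 and 3, and 28.7% to 30.8% in the controls.

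**Figure D5:**
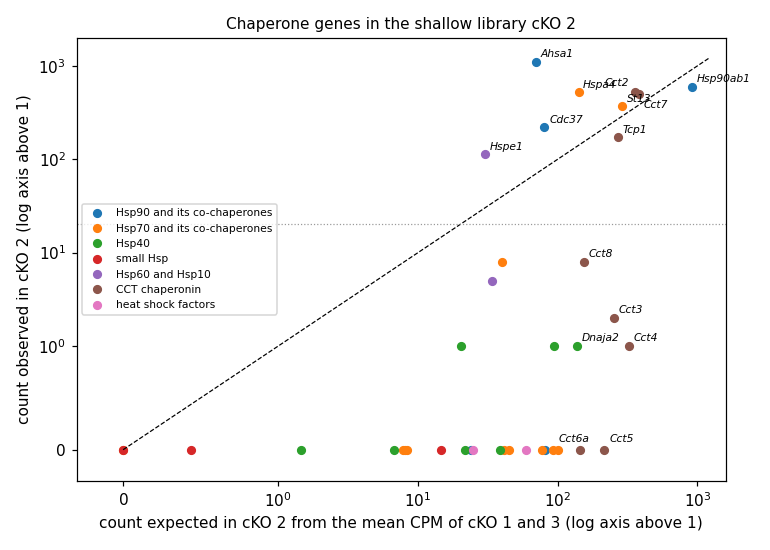
Observed count in cKO 2 (vertical, log axis above 1) against the count expected from the mean CPM of cKO 1 and 3 (horizontal, log axis above 1) for the 39 genes; the dashed line marks equality and the dotted line 20 counts. The 9 genes above the dotted line include Ahsa1 far above equality and Hsp90ab1 and Tcp1 below it, and the others lie at 8 counts or fewer.

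Related chaperone genes outside the set, taken from lists written by family, gave 0 calls in either direction with or without cKO 2 (edgeR's quasi-likelihood test). At an unadjusted p under 0.05 there were 0 of 74 tested with all 6 libraries. Without cKO 2 there were 2 higher (Hsp90b1 and Dnajc6) and 2 lower (Cryab and Dnaja3) of 75 tested, or 2.67% in each direction, beside 3.06% of all genes higher and 3.03% lower. DESeq2 and limma-voom on all 6 libraries called 0 of the same genes as well. At the unadjusted threshold DESeq2 had 6 higher and 0 lower of 73 tested (all genes 3.98% and 2.33%), and limma-voom 0 higher and 3 lower of 74 tested (all genes 2.14% and 4.27%). With all 6 libraries 16 of 16 endoplasmic reticulum chaperones, 12 of 12 prefoldin and tubulin folding factors, 18 of 19 further co-chaperones, 22 of 24 further Hsp40 genes and 6 of 11 genes of a mixed list of small heat shock, collagen chaperone and protease genes could be tested. Without cKO 2 their median log2 fold changes were 0.22, -0.06, -0.08, 0.00 and -0.28, beside -0.06 over all genes. Of the further Hsp40 genes tested, 11 lay above 0 and 11 below, while all 7 described above lay below 0; that difference was not tested. The 12 immediate early genes, which can respond to cell isolation, summed to 536, 0 and 845 CPM in cKO 1 to 3 and 484, 1018 and 1481 CPM in control 1 to 3, and 12 of 12 had a log2 fold change below 0 without cKO 2, with 0 called by edgeR and 0 at an unadjusted p under 0.05 in either fit. Zfp36, which speeds the decay of mRNAs, had 0, 0 and 27 counts in the cKO libraries and 118, 292 and 304 in the controls, and the AP-1 gene Jund 0, 0 and 121 against 287, 570 and 259.

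Genes of the endoplasmic reticulum, prefoldin and co-chaperone lists differed in how far cKO 2 set their values. Hsp90b1, the Hsp90 of the endoplasmic reticulum, had 5955, 95 and 3493 counts in cKO 1 to 3 and 3004, 2487 and 1265 in control 1 to 3 (log2 fold change 1.10, SE 0.44; edgeR adjusted p = 0.767). Sdf2l1, a cofactor in the same compartment, had 350, 112 and 316 counts against 14, 264 and 211. In CPM that is 25.2, 197 and 26.8 against 1.03, 20.7 and 15.6. The prefoldin subunit Pfdn6 had 488, 174 and 127 counts against 196, 170 and 78. In CPM that is 35.1, 306 and 10.8 against 14.4, 13.3 and 5.75, so cKO 2 stood apart for both genes. The phosphatase Ppp5c, an Hsp90 partner, had 2027, 701 and 1972 counts against 1908, 2513 and 1961. In CPM it stood at 146 and 167 in cKO 1 and 3 and at 140, 197 and 145 in the controls, with cKO 2 apart at 1233.

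Cryab, the small heat shock protein alpha-B crystallin, changed the sign of its value with cKO 2. It had 136, 354 and 157 counts in cKO 1 to 3 and 918, 183 and 1414 in control 1 to 3, or 9.78, 623 and 13.3 CPM against 67.2, 14.3 and 104.2 CPM. With all 6 libraries the log2 fold change of Cryab was 1.74 (SE 1.62; edgeR adjusted p = 0.9999), and without cKO 2 it was -2.39 (SE 0.87; edgeR adjusted p = 0.767). Dnaja3, the mitochondrial Hsp40, had 166, 2 and 207 counts against 1368, 271 and 897, below all controls in CPM. Low members were patchy: Dnajc12 had 0, 0 and 60 counts against 473, 286 and 42, Fkbp5 2, 0 and 48 against 40, 98 and 347, the disaggregase gene Clpb 0, 0 and 53 against 97, 219 and 77, and the tubulin cofactor Tbce 23, 0 and 0 against 0, 146 and 32.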

How the data were processed

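Sequencing libraries were prepared from total RNA of the labelled cells with a Lexogen QuantSeq kit that reads 3' ends forward, per the labels' protocols. Each deposited file holds raw gene counts from featureCounts 2.0.0 with the Ensembl 104 annotation (GRCm39), run with no option for strand or for reads with several alignments, per the file headers. The submitters' processing notes also name STAR, FastQC and DESeq2.

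Symbols matched 52083 of 55416 gene IDs. Genes kept by filterByExpr were scaled by TMM and tested with edgeR 4.0.16 (glmQLFit robust, glmQLFTest, two-sided, R 4.3.3), cKO against control, 3 samples each, no covariate, with an adjusted p under 0.05 as threshold. The SE is the size of the log2 fold change divided by the square root of F. CPM used the total counts, which were 568509 to 13909236 per sample, and 3 counts served as the limit of a 0. Other settings tried were RLE factors, upper-quartile factors, DESeq2 1.42.0, voom in limma 3.58.1, no filter, 5 CPM in 3 libraries, the replicate block, leaving out each library and an adjusted p under 0.10. The edgeR steps were tested on simulated data. Members and lists were chosen with earlier results of these data known. The rule for named genes took the most abundant member and the 2 smallest p-values of each class, Hspa1a, Hspa1b and Hsf1, and the 2 smallest p-values of each related list; remaining members are given so that all are accounted for, and Dnajc6 was named after its value was seen. Exon overlap came from the coordinates in the files, 50-base words from GENCODE M21 transcripts and promoters from RefSeq (GRCm38.p6). Figures were drawn with matplotlib 3.10.9.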

Additional observations from a re-analysis of the deposited data

How the results depend on the processing

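The count of 0 members called in either direction held under all 14 alternatives. The count over all genes, 1 higher and 1 lower, did not: there were 14 higher and 2 lower genes with RLE factors, 0 and 0 with upper-quartile factors, 7 and 52 with DESeq2, 6 and 8 with limma-voom, 22 higher without a filter, 2 higher at 5 CPM in 3 libraries and 0 higher with the replicate block. Leaving out 1 library gave 0 to 6 higher genes, with 6 without cKO 1, 3 without cKO 3 and 0 without any of the others. The cause was not tested. By their labels, same-numbered samples share only a number, and their deviations correlated at 0.08, 0.05 and 0.01. With 3 samples a group, such small values cannot decide whether the samples were paired. Every cKO sample correlated best with its own number, as a hint from the data, but control 3 correlated best with cKO 2.

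Ift88 had a log2 fold change of 0.05 with all 6 libraries, -2.32 by limma-voom, -3.71 with the replicate block and -6.78 to 0.65 with 1 library left out. Among the 19 named members tested, 241 of 266 values kept their direction, none passed, and the lowest adjusted p was 0.167. The replicate block turned the sign of Hsp90ab1 (-0.013), Hspa1b (-0.69) and Hsf2 (-0.58), and limma-voom that of Hspa1b (-0.44) and Hsf2 (-0.67). Without a filter Hsp90ab1 was at -0.019. Upper-quartile factors gave 3.52 for St13, 0.25 for Hspd1, 4.51 for Hspe1 and 0.011 for Hsf1. RLE factors gave 0.44 for St13 and 1.08 for Hspe1, and DESeq2 0.44 and 1.08. With 1 library left out the ranges were -0.14 to 0.22 for Hsp90ab1, -0.16 to 0.89 for Hspa1b, -0.94 to 0.19 for Hspe1, -0.98 to 0.22 for Hsf1, -0.86 to 0.87 for Hsf2, -11.2 (without cKO 3) to -4.33 (without control 3) for Hspb8 and -7.27 (without cKO 3) to -2.11 (without cKO 1) for Dnajb6. The median over all genes was -0.44 with TMM, -0.28 with RLE and -0.01 with upper-quartile factors, and the shallow depth of cKO 2 limits every value that includes it.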
